A study of Ovis aries with 3 samples.

Results

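LDHB and 2 further transcripts of the glycolysis and gluconeogenesis pathway were followed along the intestine of the sheep, exon by exon. The 3 transcripts were XM_004006792.2 (LDHB), XM_012105209.1 (listed by identifier, without a symbol) and XM_004004092.2 (FBP1). They were chosen by identifier, and with 33 exon entries they are 3 of the 83089 transcripts and 33 of the 903107 exon entries that the files list. All 3 transcripts are on the study's list for this pathway. That list was drawn from transcripts called different between these regions both in these samples and in libraries of Texel sheep, which were not analysed here. The members' differences are therefore not independent evidence. The ewes were 3 Small tailed Han sheep, each 11 months old. The tissue was intestinal mucosal epithelium from the duodenum, the cecum and the proximal part of the colon. RNA of the 3 animals was pooled, so that each region is 1 library, no treatment was given in the labels, and the comparison asks how the large intestine differs from the small intestine. The read totals that the authors scaled by were 50.8 M reads (duodenum), 46.3 M (cecum) and 53.8 M (colon), and 3 reads on a feature of 1000 bases are worth between 0.0557 and 0.0648 RPKM. RPKM is a read number scaled by the length of the exons and by this total, so that levels can be compared between genes. With 1 library per region these data give no replicate check of any difference below. Each interval is an exact 95% Clopper-Pearson interval that covers the counting of reads only.

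Glycolysis breaks glucose down to pyruvate, beginning with the phosphorylation of glucose by a hexokinase. Lactate dehydrogenase interconverts pyruvate and lactate, and LDHB encodes the subunit of this tetramer that is typical of heart and other oxidative tissues, while LDHA encodes the subunit typical of skeletal muscle. Gluconeogenesis runs in the opposite direction and bypasses the irreversible steps of glycolysis with its own enzymes, among them fructose-1,6-bisphosphatase, encoded by FBP1. In ruminants microbes of the cecum and colon ferment carbohydrate to short-chain fatty acids, which the epithelium takes up, whereas the duodenum meets the outflow of the stomach.

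The matched markers of position and absorptive cells differed between the duodenum and the large intestinal libraries. Of 6 epithelial markers, 2 were matched. EPCAM was at 582.1 RPKM in duodenum, 550.3 in cecum and 596.2 in colon, and KRT8, a keratin of simple epithelia, at 763.2, 1495 and 1104, so that their sum was 1.52-fold higher in the cecum and 1.26-fold higher in the colon than in the duodenum. Of 6 markers of absorptive cells, 3 were matched. FABP2, a fatty acid binding protein of small intestinal enterocytes, was at 1102, 0.369 and 0.368 RPKM in the same order. APOA4 was at 272.2, 0.16 and 0.22, while SLC26A3 went the other way, at 3.1, 17.9 and 19.2. For position, 1 of 3 listed markers was matched for the duodenum and 1 of 3 for the large intestine. ONECUT2, a duodenal transcription factor, was at 21.51, 0.0399 and 0.0343 RPKM. HOXB13, a posterior homeobox gene, had 0 reads in the duodenum and was at 0.0562 RPKM in the cecum and 7.859 in colon. It thus marked the colon but not the cecum. Of 4 goblet cell markers only TFF3 was matched, and it was nearly even, at 2981, 3188 and 3343 RPKM. Markers of other cell types differed between regions. The 3 of 4 smooth muscle markers that were matched (ACTA2, DES, TAGLN) summed to 531.7 RPKM in duodenum, 2622 in cecum and 1712 in colon, and the 3 of 4 fibroblast markers (COL1A2, COL3A1, DCN) to 309.9, 1090 and 556.9. The 3 of 4 immune markers (CD3E, CD79A, JCHAIN) summed to 6762, 3744 and 747.1. JCHAIN made up most of this sum, at 6626, 3659 and 662.7 RPKM. CD3E was at 111.4, 68.36 and 56.92, and CD79A, highest in the colon, at 24.91, 16.55 and 27.51. No matched marker of the smooth muscle, fibroblast and immune lists was at 0 in any library. In bulk tissue, fewer cells of a type and less RNA per cell cannot be told apart.

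LDHB was among the more abundant transcripts of the large intestine and much lower in the duodenum. XM_004006792.2 reached 88.2 RPKM in the duodenum (5371 reads), 478.1 RPKM in the cecum (26527 reads) and 419.1 RPKM in colon (27023 reads). Both large intestinal libraries therefore stood far above the duodenum and close to each other. Its gene locus ranked 1071 of 28601 loci by RPKM in duodenum, 221 in cecum and 209 in colon. The level in the cecum was 5.42-fold that in the duodenum, a log2 ratio of 2.44 (2.40 to 2.48), and the level in the colon was 4.75-fold that in the duodenum, a log2 ratio of 2.25 (2.21 to 2.29). Of the 16373 loci with at least 1 RPKM in a region, 2.2% had a larger log2 ratio of cecum over duodenum than LDHB, and 2.88% a larger one of colon over duodenum. Cecum and colon differed by only 1.14-fold, a log2 ratio of 0.19 (0.17 to 0.21), and 36.6% of the loci had a larger log2 ratio in that comparison. The interval lay above 0, but whether the cecum and the colon differ by more than animals do cannot be read from 1 pooled library each. The study also measured LDHB by quantitative PCR, where both large intestinal regions exceeded the duodenum by smaller ratios. There the mean of the colon was slightly above that of the cecum, the reverse of the order here.

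The 7 exons of LDHB, 1198 bases at positions 193310934 to 193326713 of a sequence that the files do not name, behaved alike. Exon 5 was the highest, at 156.1 RPKM in duodenum, 842.1 in cecum and 756.5 in colon. The lowest was exon 7, at 44.3, 251.8 and 215.1 RPKM, with exon 1 only slightly above it. The profile along the transcript thus had the same shape in each region, with low ends and a peak at exons 5 and 6. All 7 exons were higher in the cecum than in the duodenum, with log2 ratios between 2.25 and 2.53 (SD 0.096 over exons), and all 7 were higher in the colon than in the duodenum, between 2.12 and 2.33 (SD 0.066). All 7 were also higher in the cecum than in the colon, by log2 ratios between 0.13 and 0.26. Exons of a transcript share their library and are not replicates. Reads covered at least 81.55% of the length of every exon in every region.

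A second LDHB transcript, XM_012162665.1, shares the inner exons. Its next entry, of 269 bases, lies within exon 7 and held 714.0, 3696.5 and 3669.3 estimated reads in duodenum, cecum and colon. The last entry, of 83 bases at positions 193326665 to 193326747, begins at the last base of that one and overlaps the end of exon 7. It held 6.5 estimated reads in duodenum, 26 in cecum and 32 in colon, or 1.54, 6.76 and 7.16 RPKM. Its level was a small part of that of the shared exons everywhere and was lowest in the duodenum, as for the gene. Exon 7 and the 269-base entry carry nearly the same reads, so these values do not give the share of the second transcript.

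**Figure D1:**
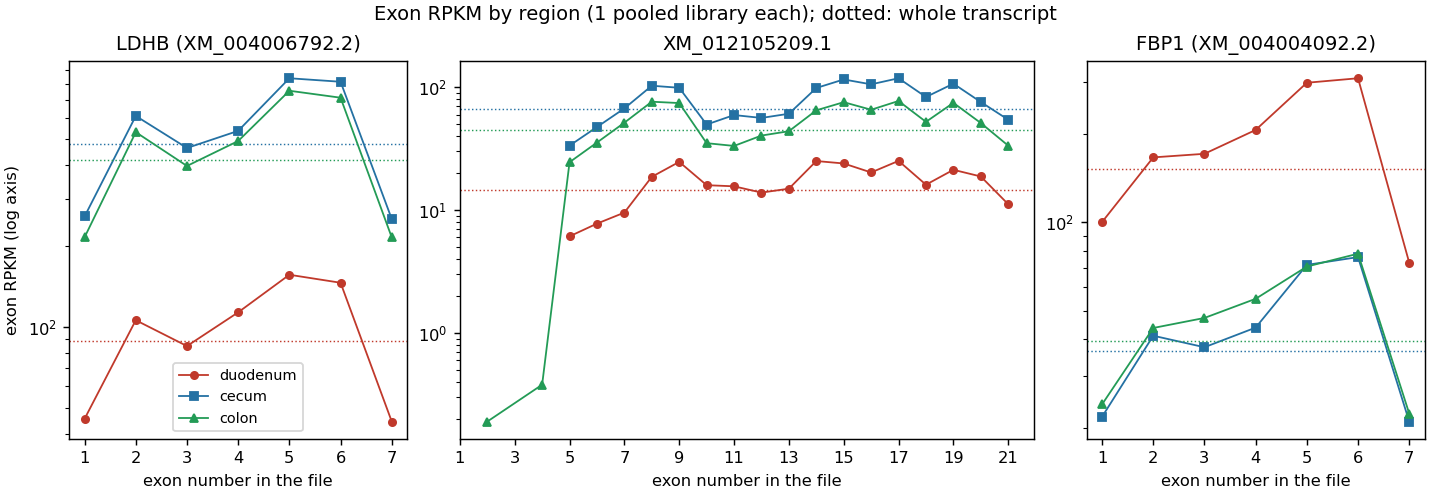
RPKM on a log axis against exon number for LDHB, XM_012105209.1 and FBP1 in the duodenum (red circles), cecum (blue squares) and colon (green triangles), with the whole transcript as a dotted line and exons without reads left out. LDHB exons lie between 44.3 and 156.1 RPKM for the duodenum and between 251.8 and 842.1 for the cecum, FBP1 exons are highest in the duodenum, and exons 2 and 4 of XM_012105209.1 have 1 read each, in the colon.

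XM_012105209.1 also had its highest level in the cecum and its lowest in the duodenum, with the colon between them. It belongs to the maps for glycolysis, starch and sucrose, fructose and mannose, and galactose metabolism in the pathway annotation of the study. Its level was 14.65 RPKM in the duodenum (2678 reads), 66.85 RPKM in the cecum (11135 reads) and 44.85 RPKM in colon (8685 reads). The cecum was 4.56-fold above the duodenum, a log2 ratio of 2.19 (2.13 to 2.25), and the colon 3.06-fold, a log2 ratio of 1.61 (1.55 to 1.68). A larger log2 ratio was found in 2.68% of the loci for cecum over duodenum and in 4.89% for colon over duodenum. Unlike LDHB, this transcript separated the cecum from the colon by 1.49-fold, a log2 ratio of 0.58 (0.54 to 0.62), with 10.3% of the loci above it.

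All 17 exons with reads in every region were higher in both large intestinal libraries than in the duodenum, and all 17 were higher in the cecum than in the colon. The size of the difference varied more along this transcript than along LDHB. Log2 ratios of cecum over duodenum ran from 1.64 at exon 10 to 2.82 at exon 7 (SD 0.29 over exons), and those of colon over duodenum from 1.09 at exon 11 to 2.43 at exon 7 (SD 0.346). Exon 7 was at 9.55 RPKM in duodenum, 67.3 in cecum and 51.5 in colon, while exon 10 was at 15.95, 49.7 and 35.1. Exons 5 to 8 had larger log2 ratios over the duodenum, in cecum and in colon, than any exon further 3′. Cecum over colon was largest at exon 11, with a log2 ratio of 0.84, and smallest at exon 7, with 0.39.

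The start of the transcript carried almost no reads. Exons 2 and 4, of 98 and 49 bases, held 1 read each in the colon and none in the duodenum or the cecum, and exons 1 and 3 were not listed in any region. An alternative first exon of 227 bases, positions 25480674 to 25480900, belongs to 2 other transcripts of the same locus and held 1 read in duodenum, 5.96 in cecum and 4 in colon. Exon 5 was the first with more than a few reads, with 6.12 RPKM in duodenum, 33.5 in cecum and 24.5 in colon. These values do not show which first exon the RNA used.

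XM_012105209.1 is built from a repeated block of exons. Exons 6 to 12 and exons 14 to 20 have the same 7 lengths in the same order, 1046 bases in each block, over positions 25464247 to 25556931 for the whole transcript. Hexokinases of mammals are known for such an arrangement, having arisen by duplication of a smaller ancestor, but the files pair no symbol with this transcript. The first block was at 14.62 RPKM in duodenum, 64.04 in cecum and 45.58 in colon, and the second at 20.94, 96.58 and 63.54. The second block was the higher in every region, and both gave similar log2 ratios, 2.13 and 2.20 for cecum over duodenum and 1.64 and 1.60 for colon over duodenum.

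The neighbouring transcript by position number went the opposite way. No chromosome is given, so neighbour means near by position number only. HKDC1 (XM_004021424.2), which encodes a hexokinase domain protein, lies 38.3 kb from XM_012105209.1 by the files' positions and has 15 exons of matching length in the same order. HKDC1 was at 20.62 RPKM in duodenum, 3.32 in cecum and 5.75 in colon, log2 ratios of -2.63 for cecum over duodenum and -1.84 for colon over duodenum. XM_012105209.1 accounted for 41.5% of the summed RPKM of both transcripts in duodenum, 95.3% in cecum and 88.6% in the colon. Their order was thus exchanged between the small and the large intestine. Similar exons can share reads where their sequences are alike, and how the counting divided such reads was not tested.

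**Figure D2:**
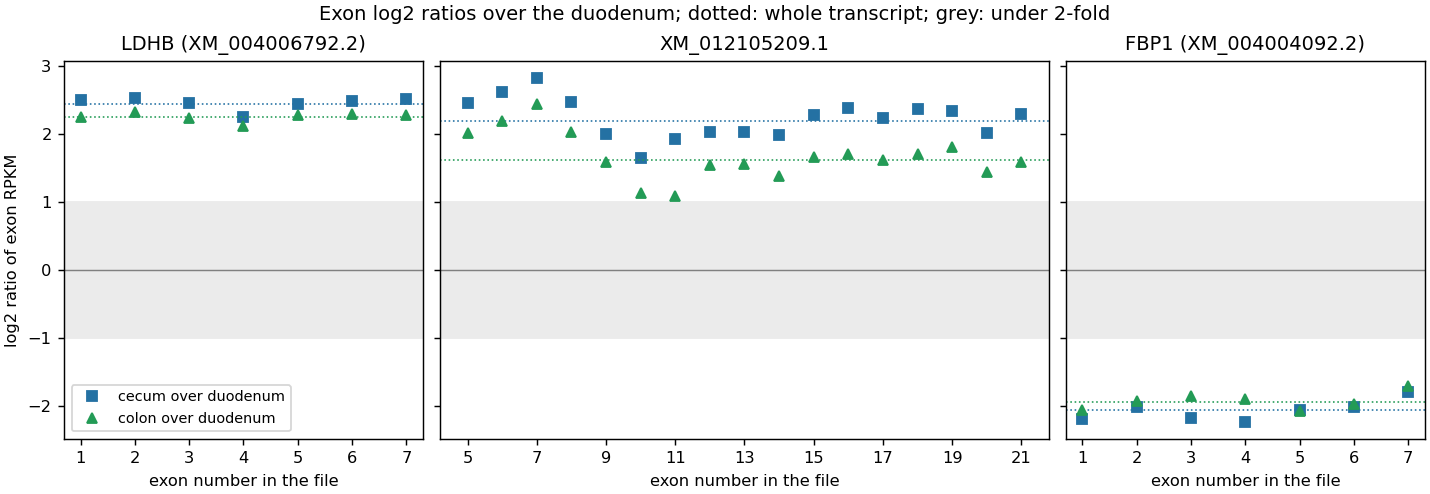
Log2 ratios of exon RPKM over the duodenum against exon number for LDHB, XM_012105209.1 and FBP1, for the cecum (blue squares) and the colon (green triangles), with the whole transcript as a dotted line and ratios under 2-fold in grey. Every exon lies outside the grey band, LDHB exons lie between 2.12 and 2.53, and XM_012105209.1 exons spread from 1.09 to 2.82.

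FBP1 was the member with its highest level in the duodenum. XM_004004092.2 was at 151.1 RPKM in the duodenum (11017 reads), 36.34 in the cecum (2414 reads) and 39.39 in colon (3040 reads). The locus ranked 562 by RPKM in duodenum, 2366 in cecum and 2073 in colon. The duodenum was 4.16-fold above the cecum, a log2 ratio of cecum over duodenum of -2.06 (-2.12 to -1.99), and 3.84-fold above the colon, a log2 ratio of colon over duodenum of -1.94 (-2.00 to -1.88). Of the 16373 loci, 97.0% had a larger log2 ratio of cecum over duodenum and 96.7% a larger one of colon over duodenum. The colon was 1.08-fold above the cecum, a log2 ratio of cecum over colon of -0.12 (-0.19 to -0.04).

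All 7 exons of FBP1, 1434 bases at positions 31653020 to 31684370, were lower in both large intestinal regions than in the duodenum. Log2 ratios lay between -2.23 and -1.80 for cecum over duodenum (SD 0.152 over exons) and between -2.08 and -1.71 for colon over duodenum (SD 0.128). Exon 6 was the highest, at 308.5 RPKM in duodenum, 76.0 in cecum and 78.1 in colon. The difference between cecum and colon was less even, with 6 of 7 exons higher in the colon and exon 5 slightly higher in the cecum (71.5 against 70.6 RPKM).

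FBP1 also has a neighbour by position number with the opposite pattern. XM_004004093.2, without a symbol in the sources used here, lies 24.6 kb away if both are on the same chromosome, which is not given. It also has 7 exons, of which the 5 inner ones have the lengths of the FBP1 exons (164, 94, 142, 139 and 121 bases). It was at 16.29 RPKM in duodenum, 79.44 in cecum and 71.7 in colon, which is 2.29 on the log2 scale for cecum over duodenum and 2.14 for colon over duodenum. FBP1 made up 90.3% of the summed RPKM of both transcripts in duodenum, 31.4% in cecum and 35.5% in the colon. The sum differed less between regions than FBP1 itself, at 167.4 RPKM (duodenum), 115.8 (cecum) and 111.1 (colon). How reads were divided between exons of equal length was not tested here either.

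**Figure D3:**
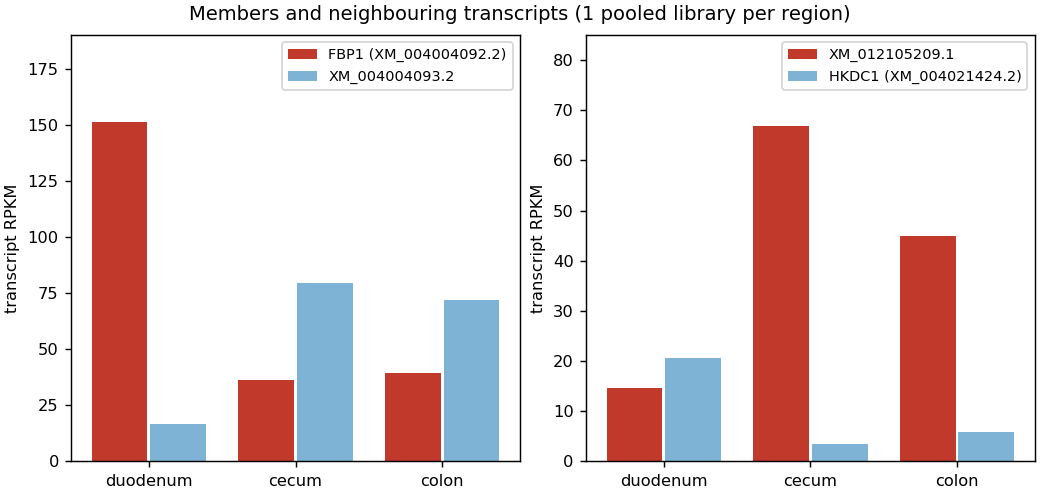
RPKM of FBP1 with XM_004004093.2 (left) and of XM_012105209.1 with HKDC1 (right), each its neighbour by position number, in the duodenum, cecum and colon. Each region is 1 pooled library, without error bars. FBP1 is the taller bar in the duodenum (151.1 against 16.29) and the shorter in the cecum (36.34 against 79.44), and XM_012105209.1 is the taller in the cecum (66.85 against 3.32) and the shorter in the duodenum (14.65 against 20.62).

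Ratios within a library do not depend on the scaling between libraries. LDHB was 0.584 times FBP1 in duodenum, 13.2 times in cecum and 10.6 times in colon. LDHB over XM_012105209.1 varied less, at 6.02, 7.15 and 9.34, and XM_012105209.1 over FBP1 was 0.0969, 1.84 and 1.14. The smooth muscle markers moved with LDHB and XM_012105209.1, with sums 4.93-fold higher in the cecum and 3.22-fold higher in the colon than in the duodenum, and the fibroblast markers with 3.52-fold and 1.8-fold. Their part in the levels of the members was not tested. The sum of the epithelial markers was 1.52-fold and 1.26-fold higher, with KRT8 at 1.96-fold and 1.45-fold and EPCAM at 0.945-fold and 1.02-fold.

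At a fold of at least 2, the limit that the study used, LDHB and XM_012105209.1 were higher in the cecum than in the duodenum. FBP1 was lower. All 3 are on a list the study drew from transcripts past this limit, using these samples, so their passing is not independent evidence. The same holds for their places among all loci given above. Over all 16373 loci, 11.6% were at least 2-fold higher in the cecum and 7.03% at least 2-fold higher in the duodenum. The same transcripts went the same way in the colon, where 9.5% of all loci were at least 2-fold higher than in the duodenum and 7.62% at least 2-fold lower. Both comparisons share the duodenal library. None of the 3 members passed the fold of 2 between cecum and colon, where 3.5% of all loci were at least 2-fold higher in the cecum and 3.59% at least 2-fold higher in the colon.

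Other genes of the pathway were found in both directions. The lists for glycolysis, lactate and gluconeogenesis held 24 further genes with a symbol and at least 1 RPKM in a region. Of these, 5 (20.8%) were at least 2-fold higher in the cecum than in the duodenum and 4 (16.7%) at least 2-fold lower. Over all loci the shares were 11.6% and 7.03%. The median log2 ratio was 0.39 against 0.045 over all loci. At a fold of 1.5 the counts of higher and lower genes were 11 and 5, so the near balance depended on the limit. For colon over duodenum 6 of the 24 were higher and 5 lower, with a median of 0.042 against -0.02 over all loci. Between cecum and colon, 1 (4.17%) was at least 2-fold higher in the cecum and 2 (8.33%) in colon, beside 3.5% and 3.59% of all loci. The median was 0.30 against 0.09. LDHA and many other genes of these lists were not analysed here, since only 27 of the 50 listed symbols were matched to a transcript.

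In glycolysis proper, 12 genes passed 1 RPKM. As for loci in general, most of the 12 stayed within a fold of 2. PFKM, the muscle-type phosphofructokinase, was the only one at least 2-fold higher in the large intestine, at 5.79 RPKM in duodenum, 14.65 in cecum and 12.33 in colon. Between colon and duodenum this made a log2 ratio of 1.09, and its interval of 0.99 to 1.19 reaches below the 2-fold line. HKDC1 and BPGM, the bisphosphoglycerate mutase, were at least 2-fold lower in both large intestinal regions, and BPGM was at 6.33, 2.19 and 1.97 RPKM. HK3, a hexokinase of white blood cells, was at least 2-fold lower in the colon alone, at 3.81, 2.39 and 1.73 RPKM.

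The other glycolytic genes were flatter, and most were abundant. GAPDH was at 584.2, 940.9 and 729.8 RPKM in duodenum, cecum and colon, ALDOA at 250.8, 467.4 and 406.4, and PKM, the pyruvate kinase that feeds lactate dehydrogenase, at 30.25, 58.78 and 55.23. PKM thus came close to a fold of 2 in the cecum, with 1.94-fold. GPI was at 125.7, 167.5 and 122.7 RPKM, and PGK1 at 178.5, 163.6 and 119.9, where the duodenum was the highest. ENO2 was at 5.05, 8.61 and 5.49 RPKM and ENO3 at 1.14, 1.84 and 0.986. Copies of GAPDH elsewhere in a genome can share reads with it, so its level is uncertain.

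Transporters of lactate and their chaperones differed among themselves. SLC16A1, a proton-coupled transporter of lactate, pyruvate and other monocarboxylates including short-chain fatty acids, was at 2.33 RPKM in duodenum, 23.1 in cecum and 19.1 in colon, 9.91-fold and 8.2-fold above the duodenum. BSG, the chaperone that brings SLC16A1 to the cell membrane, was at 294.5, 708.6 and 609.1 RPKM, or 2.4-fold and 2.07-fold. SLC16A7, a relative with high affinity for pyruvate, was at 0.925, 2.56 and 3.49 RPKM. EMB, the chaperone that partners SLC16A7, went the other way, at 6.89, 3.19 and 2.56 RPKM. SLC5A8, a sodium-coupled monocarboxylate transporter, was low everywhere, with 0.525, 0.676 and 1.62 RPKM, and passed the fold of 2 in the colon. SLC16A3, known for lactate export, was at 1.16, 1.89 and 1.8 RPKM, under a fold of 2. Without LDHB, 3 of the 6 measured genes of the lactate list were at least 2-fold higher in the cecum than in the duodenum and 4 of 6 in the colon, beside 11.6% and 9.5% of all loci, and EMB was the 1 that was lower in each. With 6 genes these counts are small, and the list was not tested.

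Gluconeogenic enzymes split in both directions. PCK1, which makes phosphoenolpyruvate from oxaloacetate, was at 13.77 RPKM in duodenum, 66.23 in cecum and 231.3 in colon. It was thus 4.81-fold above the duodenum in the cecum and 16.8-fold in the colon, and 3.49-fold higher in the colon than in the cecum, a step that none of the 3 members showed. PCK1 over FBP1, both per gene locus, was 0.0971 (duodenum), 1.97 (cecum) and 6.33 (colon), with the FBP1 locus at 141.8, 33.67 and 36.56 RPKM. G6PC1, which releases free glucose from glucose 6-phosphate in liver, kidney and intestine, followed FBP1 with 262 reads in duodenum, 10 in cecum and 4 in colon, or 1.45, 0.0609 and 0.021 RPKM. Its log2 ratio of cecum over duodenum was -4.58 (-5.65 to -3.68). MDH1, MDH2, GOT1 and GOT2, which shuttle oxaloacetate between compartments, stayed within a fold of 2, and MDH2 was at 376.7, 281.5 and 218.0 RPKM.

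**Figure D4:**
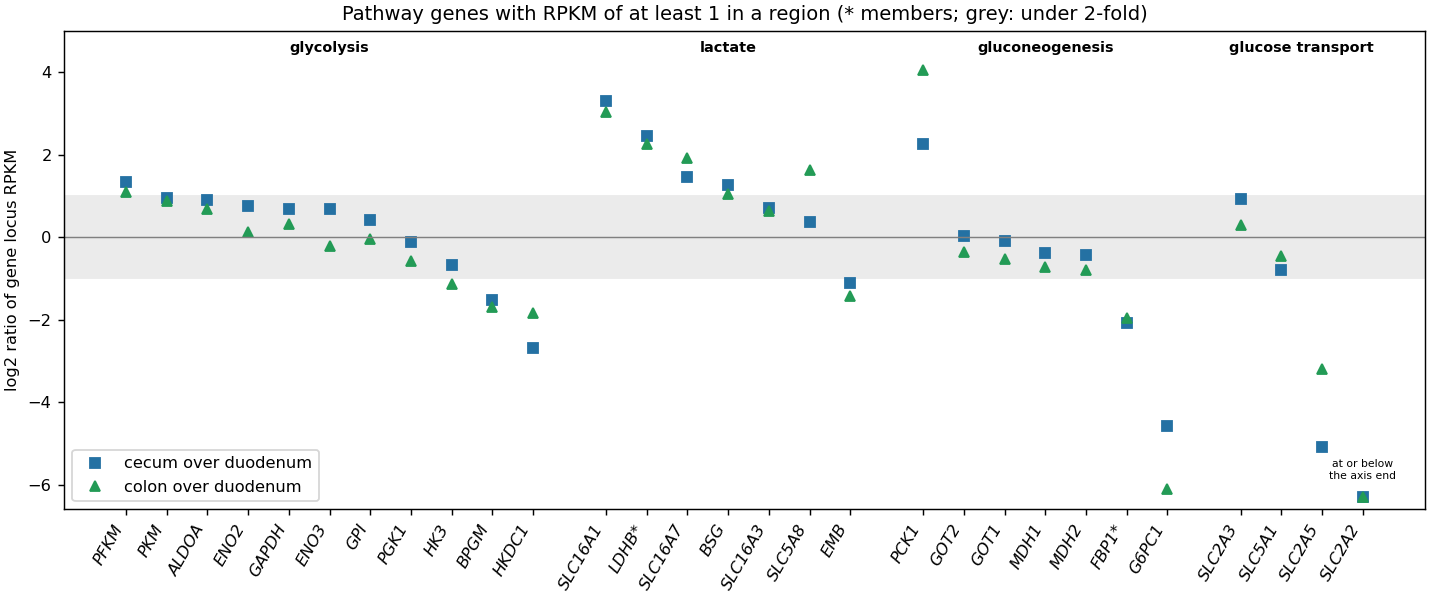
Log2 ratios of gene locus RPKM for the cecum (blue squares) and the colon (green triangles) over the duodenum, for genes of 4 lists with at least 1 RPKM in a region, with members starred and ratios under 2-fold in grey. Most glycolytic genes lie in the grey band, LDHB, SLC16A1 and PCK1 lie above it, and FBP1, G6PC1 and SLC2A5 lie below it. SLC2A2 is drawn at the end of the axis.

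The 4 measured sugar transporters did not share a direction. SLC2A5, the fructose transporter, was at 18.08 RPKM in duodenum, 0.533 in cecum and 1.96 in colon, 33.9-fold and 9.23-fold higher in the duodenum, which is the direction of FBP1. SLC2A2, the basolateral glucose transporter, was named after its values were seen, with 3.59 RPKM in duodenum, 0.0161 in cecum and 0 reads in the colon, so that the duodenum was at least 346-fold higher than the colon against a floor of 3 reads in the colon library. The other genes of the list stayed within a fold of 2 and were also named after their values were seen. SLC5A1, the sodium-glucose cotransporter, was at 71.44, 41.27 and 51.85 RPKM, and SLC2A3, a glucose transporter of high affinity, was highest in the cecum, at 5.92, 11.34 and 7.21 RPKM. Of 13 listed genes for the entry of pyruvate into mitochondria, 7 were measured, and none passed a fold of 2 in any comparison. Most loci did not either, with 13324 of the 16373 within a fold of 2 between cecum and duodenum. Higher in the cecum than in the duodenum were 4 of the 7, beside 8808 of the 16373 loci. Of 12 listed regulators of glycolysis only 4 were matched to a transcript, and 3 of these passed 1 RPKM, too few to describe as a group. PPARGC1A, a coactivator of oxidative metabolism and gluconeogenesis, was at 0.423, 3.72 and 2.88 RPKM, PFKFB4, which controls the level of a phosphofructokinase activator, at 3.89, 6.11 and 8.35, and the transcription factor MYC, highest in the duodenum, at 28.2, 24.48 and 14.98. These 3 were likewise named after their values were seen.

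Among enzymes at the sides of the pathway, ACSS2, which activates acetate, was higher in the large intestine, at 85.1, 183.4 and 205.4 RPKM. GALM, the mutarotase of galactose and glucose, was at 129.8, 35.11 and 20.57 RPKM, and PGM2 at 46.29, 18.85 and 18.04. These were the only genes of that list named, as those furthest past a fold of 2 in each direction. GALM and PGM2 thus lay on the side of FBP1 and ACSS2 on the side of LDHB.

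The study's own list for the pathway held 25 transcripts, of which 16 were found, in 14 loci. It was chosen on these samples, so its directions are not independent evidence. Apart from the members, 2 of its 11 further loci were at least 2-fold higher in the large intestine (PCK1 and XM_004004093) and 7 at least 2-fold lower. This held whichever large intestinal library was set against the duodenum. Over all loci, 11.6% were at least 2-fold higher and 7.03% lower in the cecum, and 9.5% higher and 7.62% lower in the colon. XM_004022834 stood apart, at 259.2 RPKM in the duodenum (2319 reads) with 0 reads in either large intestinal library, at least 704-fold and 818-fold higher against a floor of 3 reads per library. XM_012182770 was at 10.98, 0.608 and 1.02 RPKM. Among the 14 loci found, LDHB and XM_012105209.1 were in the smaller group, and FBP1 in the larger. The transcripts that were not found could change these group sizes.

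**Figure D5:**
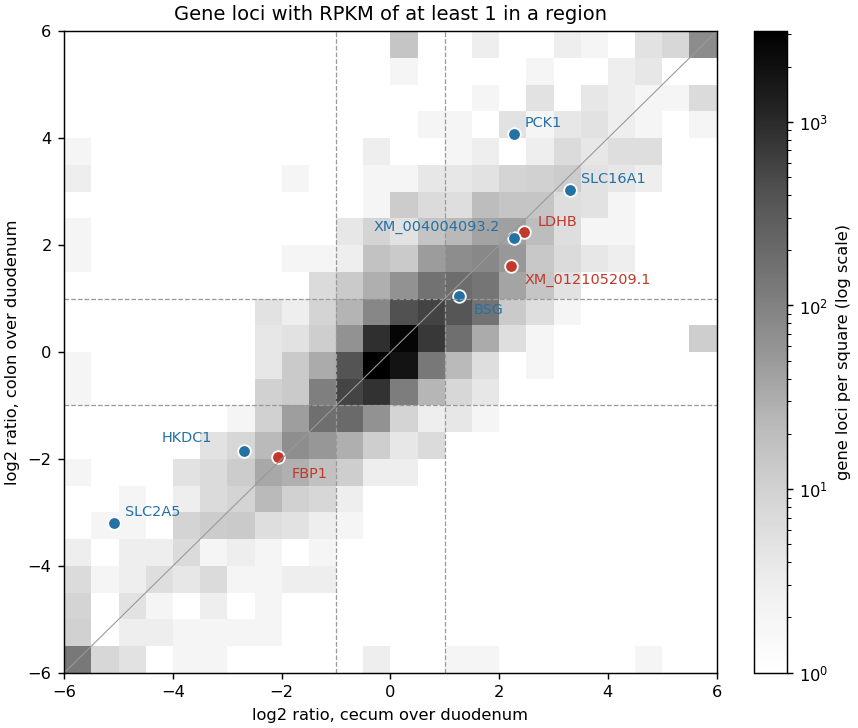
Log2 ratio of colon over duodenum against log2 ratio of cecum over duodenum for 16373 gene loci, with grey squares shaded by the number of loci on a log scale, members in red and related genes in blue, dashed lines at 2-fold and loci beyond the axes drawn in the outermost squares. LDHB (2.45, 2.25) and XM_004004093.2 (2.28, 2.12) lie close together near the diagonal, XM_012105209.1 lies below it, PCK1 above it, and FBP1 (-2.08, -1.96) at the opposite corner.

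The loci whose pattern was most like that of LDHB were found by the distance between their log2 ratios over the duodenum and those of the LDHB locus, among 7445 loci with at least 10 RPKM in a region. XM_012131480.1 was the nearest, at a distance of 0.077, with 7.61 RPKM in duodenum, 40.39 in cecum and 34.67 in colon. XM_012102282.1 followed at 0.129, with 4.237, 25.03 and 19.33 RPKM. The only named locus among the first 5 was CDX1, an intestinal homeobox gene, at a distance of 0.194, with 6.46, 30.94 and 30.05 RPKM. In all, 8 loci lay within 0.25 of LDHB. The ratios rest on the same 3 libraries, so likeness describes these libraries only.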

How the data were processed

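The deposited files give, for each exon of each transcript in each region, an estimated count of reads, an RPKM and a covered length in percent. The authors made the estimated (expected) counts from 100 bp reads, and their methods name Bowtie2 and RSEM with the sheep genome v4.0, while the submitters' processing notes list BWA and Bowtie 0.12.2. The deposited RPKM equals the estimated count divided by exon length and by the read total in the header. The deposited percent of covered length was used only to describe exons. The build of the positions is not given in the sources used here, and exons under 1 read were not listed and were taken as 0. Since 1 pooled library per region was analysed, no test across samples was made.

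A transcript's RPKM was computed from reads and lengths summed over its exons, with 50832279, 46311533 and 53827214 reads as totals for duodenum, cecum and colon. Transcripts sharing an exon with the same position and reads were joined into 28601 gene loci, whose overlapping exon variants count their reads more than once. List genes and ranks are given per locus and members per transcript. A locus entered a comparison with at least 1 RPKM in a region, and was counted past a fold of 2. Zeros were replaced by 0.001 RPKM for counting, and lower bounds used 3 reads. Symbols came from the RefSeq table of assembly ARS-UI_Ramb_v3.0 or from the study's lists, matched by accession without version, for 8735 of 83089 transcripts. None of its coordinates were used. The values of 1 listed gene are not reported here, though it is counted in its list.

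The members and lists were chosen with earlier results of these data known. Named were the members, markers of cell type and region, and any measured gene of the glycolysis, lactate and gluconeogenesis lists. Also named were the 5 loci nearest to LDHB and, of other lists, the 2 genes furthest past a fold of 2 in each direction with at least 10 RPKM. Genes named outside this rule are marked in the text as named after their values were seen. Alternatives changed the exons, the scaling, a pseudocount of 1 RPKM, the fold limit, the low-value filter, and added the Audic-Claverie test at a false discovery rate of 0.001. Computations ran in Python 3.11.15 (scipy 1.17.1, pandas 2.3.3, numpy 2.4.6), and figures were drawn with matplotlib 3.10.9. The calculations were tested on simulated data.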

Additional observations from a re-analysis of the deposited data

How the results depend on the processing

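No replicate could be left out, since each region is 1 pooled library. No paired analysis was possible because the RNA of the animals was pooled. The direction of every log2 ratio of the 3 members was kept under all 8 alternatives, of which 2 (the whole locus, and exons listed in every region) were chosen after seeing the data. With the median of the exons, LDHB gave 2.34 for cecum over duodenum and 0.13 for cecum over colon, XM_012105209.1 gave 2.08 and 0.40 for the same ratios and 1.68 for colon over duodenum, and FBP1 gave -1.85 for colon over duodenum and -0.20 between cecum and colon. Median-ratio rescaling gave cecum over colon as 0.11 for LDHB, 0.49 for XM_012105209.1 and -0.20 for FBP1. Scaling without the 10 loci with the most reads gave 0.11, 0.49 and -0.20, and 2.38 for LDHB in cecum over duodenum. A pseudocount of 1 RPKM gave XM_012105209.1 2.12 for cecum and 1.55 for colon over duodenum. With a fold of 1.5, 11 pathway genes were higher and 5 lower in the cecum than in the duodenum, and 3 were higher in the cecum than in the colon. With a fold of 4, 2 were higher and 2 lower in the cecum than in the duodenum, and 2 higher and 1 lower in the colon than in the duodenum. Between cecum and colon 0 passed in each direction. Shares of all loci at folds of 1.5 and 4 were not computed. Without a filter on low values, the shares of all loci past a fold of 2 were 18.1% and 14.9% (cecum and duodenum higher), 17.5% and 15.0% (colon and duodenum higher), and 11.2% and 13.0% (cecum and colon higher). With at least 10 RPKM, 2.27% of loci were higher in the cecum than in the colon. Shifts with the fold limit and the filter follow from their construction, and the cause of the others was not tested. Depth limits the statements on genes near 3 reads, and the lack of replicates limits all others.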
